A study of Sus scrofa with 8 samples.

Results

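The enzymes described here make, reduce, oxidise or conjugate androstenone and related steroids. A list of 10 was chosen for these roles, namely HSD3B1, SULT2A1, CYB5A, CYP17A1, CYP11A1, SRD5A1, SRD5A3, HSD17B4, HSD17B11 and STS. Of these, 7 had a row paired with their name among the 22516 genes of the expression files, and all 7 had at least 1 count and entered the test. HSD3B1, SRD5A3 and STS were not paired with a gene identifier and were not analysed here. In the nasal tissue of sows, CYB5A was the most abundant of the 7 and CYP17A1 was at the edge of detection. None of the 7 differed between sprayed and unsprayed sows beyond the spread of the libraries by the test used, and HSD17B4 (lower after the spray) and SULT2A1 (higher after the spray) had the smallest p-values.

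Androstenone is a volatile steroid that boars release in saliva and that acts on sows in estrus as a pheromone. The boar testis makes it from cholesterol. CYP11A1 first cuts the cholesterol side chain to give pregnenolone, then CYP17A1 with cytochrome b5 (the product of CYB5A) forms the androstene skeleton, and hydroxysteroid dehydrogenases and a steroid reductase complete it. Clearance runs through reduction and oxidation by hydroxysteroid dehydrogenases and conjugation to sulfate or glucuronide, mainly in liver and testis, and the nasal mucosa is itself rich in enzymes that modify small lipophilic odorants.

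Libraries of RNA were made from the olfactory epithelium of both sides of the nose in 4 sows in estrus, aged 8 months, from crosses of Landrace males with Rongchang females. The androstenone group (4 libraries from 2 sows) was sampled 30 min after Boarmate, a commercial androstenone spray, was applied to the nasal cavity. The control group (4 libraries from 2 sows) received no solution, so the contact with a spray liquid cannot be told apart from androstenone. The labels do not say which libraries share a sow, so the p-values below treat libraries as replicates. They measure the spread between libraries, part of which may be technical. With 2 sows per group and both sides of each sampled, they do not measure the spread between sows.

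The libraries held 81580146 to 100685566 estimated counts, except control 1 with 4178330. In control 1, 3 counts correspond to 0.718 CPM (counts scaled to the library total), against 0.0298 to 0.0368 CPM in the other libraries. The clean reads that the study lists for its control 1 lie within the range of its other libraries. Why the deposited count total of control 1 is low was not tested. Intervals and floors here cover counting error only. In control 4 the 10 most abundant genes took 29.4% of the counts, against 6.57% to 9.02% elsewhere, and 10 bone and cartilage markers summed to 60200 TPM (a level scaled for transcript length and library total), against at most 4278 TPM elsewhere. Several markers that define olfactory sensory neurons were scarce for a tissue labelled olfactory epithelium. The receptor transporter RTP2 was at 0 in all 8 libraries, RTP1 reached at most 0.038 TPM, and CNGA2, a subunit of the olfactory transduction channel, lay between 0.279 and 5.01 TPM. Of the rest, STOML3 was at 34.9 to 190 TPM, ANO2 at 3.18 to 50.4 TPM, NCAM1 at 0.882 to 78.4 TPM and ADCY3 at 6.25 to 15.0 TPM. GNAL was at 0.497 to 8.87 TPM and EBF1 at 1.18 to 12.2 TPM, while CNGA4 reached at most 0.699 TPM and GNG13 0.493 TPM. The 11 olfactory neuron markers summed to 136 to 219 TPM in control and 108 to 188 TPM in androstenone libraries. Most of each sum came from STOML3, ANO2 and NCAM1. By contrast, 12 markers of ciliated airway cells summed to 332 to 1990 TPM in control and 431 to 1680 TPM in androstenone libraries. STOML3 was highest in control 3 and androstenone 1 and 2 (190, 155 and 163 TPM), also the highest libraries in the ciliated sum. NCAM1 was highest in control 4. The olfactory neuron sum therefore does not measure these neurons alone. The tissue is bulk, so fewer cells of a type and less RNA per cell cannot be told apart.

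Levels between genes were compared in TPM, which is scaled for transcript length. The mean TPM over the 8 libraries was 156 for CYB5A, 43.0 for HSD17B4, 26.7 for HSD17B11, 11.6 for SRD5A1, 8.38 for CYP11A1, 1.09 for SULT2A1 and 0.0501 for CYP17A1. CYB5A ranked 698 and CYP17A1 19746 by mean TPM among the 21359 genes with a value above 0. The order held in 8 of 8 libraries at every step but that from SRD5A1 to CYP11A1, where it held in 7 of 8 because CYP11A1 was higher in control 3. The TPM ranges of HSD17B4 and HSD17B11 overlapped over the libraries although HSD17B4 was the higher of the pair within each, with a ratio of means of 1.61. The ranges of SRD5A1 and CYP11A1 also overlapped, and the difference within that pair was not tested. The other steps did not overlap, the widest being 21.7 times between SULT2A1 and CYP17A1.

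**Figure D1:**
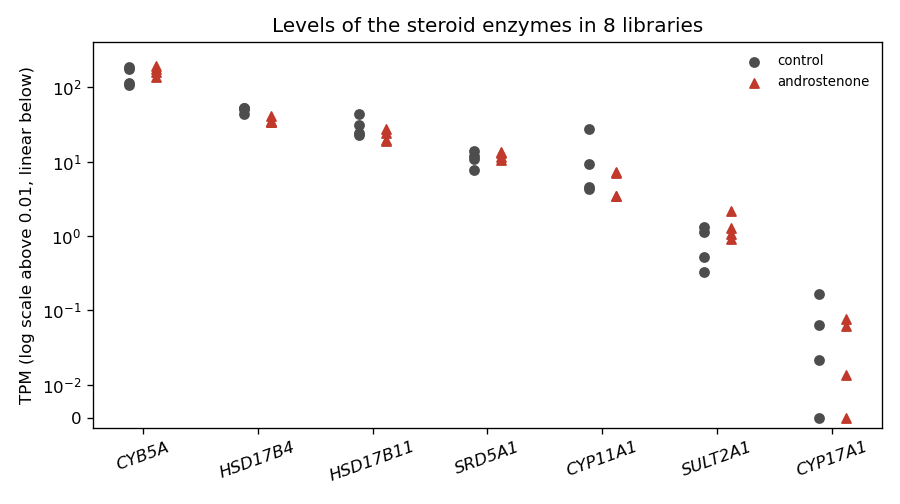
TPM (vertical axis, log scale above 0.01 and linear below) of the 7 enzymes in each control library (grey circles) and androstenone library (red triangles). CYB5A lies between 108 and 193 TPM in all 8 libraries, CYP11A1 has 1 control library at 27.6 TPM apart from the rest, and CYP17A1 is at 0 in 1 library of each group.

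The comparison of sprayed with unsprayed sows asks whether the transcripts of these enzymes change within 30 min of the pheromone. By edgeR's quasi-likelihood test, 0 of the 7 enzymes passed an unadjusted p of 0.05, while 11.3% of the 21318 genes tested did. When the absolute log2 fold change also had to reach 1, the rule the study used, 0 of 7 enzymes were called, against 6.42% of all genes. After Benjamini-Hochberg adjustment over all genes, 0 of 7 enzymes and 0% of all genes passed 0.05, and the lowest adjusted p among the enzymes was 0.456. Other tools called up to 670 genes after adjustment (DESeq2), with 200 by the edgeR likelihood ratio test, 2 by limma on log2(TPM + 0.1) and 0 by limma voom or limma on log2(TPM + 1), and none of the 7 enzymes was among them. At the unadjusted p, DESeq2 passed 2 of 7 enzymes (HSD17B4 and SULT2A1), beside 3037 of the 21318 genes. Limma voom passed 1 enzyme (SULT2A1), beside 2006 genes. Limma on log2(TPM + 0.1) and on log2(TPM + 1) each passed 1 enzyme (HSD17B4), beside 1743 and 1742 genes. The likelihood ratio test passed 0 enzymes, beside 2561 genes. The groups overlapped in CPM scaled by TMM (trimmed mean of M values) for all 7 enzymes, whereas 6.53% of all genes had no overlap. Of the enzymes, 4 had a lower and 3 a higher fitted value in the androstenone group, and their median log2 fold change was -0.31, beside -0.021 over all genes tested.

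**Figure D2:**
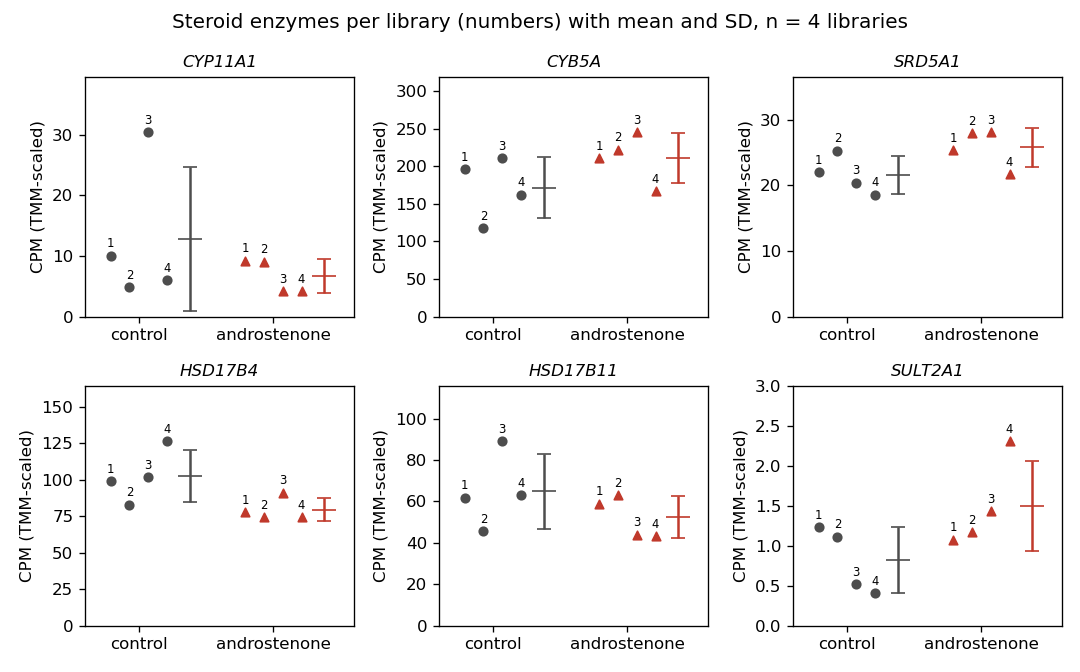
TMM-scaled CPM (vertical axis, from 0) of 6 enzymes in each library, numbered by replicate, with control libraries as grey circles, androstenone libraries as red triangles, and the mean with its SD (n = 4 libraries) to the right of each group. The groups overlap in all 6 panels, and control 3 stands at 30.4 CPM for CYP11A1 while the other 7 libraries lie between 4.14 and 10.1 CPM.

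CYP11A1 is the mitochondrial cytochrome P450 that opens steroid synthesis by cutting the side chain of cholesterol (gene ENSSSCG00000025273, RefSeq Sscrofa11.1 chromosome 7, 59172829 to 59188479). Its TMM-scaled CPM was 10.1, 4.82, 30.4 and 6.02 in controls 1 to 4, and 9.21, 9.04, 4.24 and 4.14 in androstenone libraries 1 to 4. Control 3 was the highest library by a wide margin, and the other 3 controls, at 4.82 to 10.1 CPM, overlapped the androstenone libraries. The means were 12.8 ± 11.9 CPM (SD, n = 4) in control and 6.66 ± 2.85 CPM (SD, n = 4) in androstenone libraries. The log2 fold change was -0.95 (SE 0.62), with an unadjusted p of 0.159 and an adjusted p of 0.56 by edgeR's quasi-likelihood test with Benjamini-Hochberg adjustment. Without control 3 the log2 fold change was -0.04, with an unadjusted edgeR p of 0.924, and with androstenone 1 and 2 also left out it was -0.70 (unadjusted edgeR p 0.117).

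Other genes that mark steroid-making organs were at low levels. STAR, which carries cholesterol to the side-chain cleavage enzyme, lay between 0.257 and 1.04 TPM, and NR5A1, the factor that sets the steroid-making program of gonads and adrenal, reached at most 0.187 TPM. The gonadotropin receptors FSHR and LHCGR reached 0.092 and 0.325 TPM, the corticotropin receptor MC2R 0.482 TPM, the Leydig cell hormone INSL3 0.979 TPM, and the liver products ALB and TTR 0.898 and 0.355 TPM. Of this fixed list of 10 gonadal, adrenal and liver markers, 2 were higher after the spray at an unadjusted p of 0.05 (NR5A1 and FSHR, both of them at these low levels) and 0 were lower, where 5.09% of all genes tested were higher and 6.24% lower at that p. The list summed to 18.0 to 229 TPM in control and 9.02 to 228 TPM in androstenone libraries, most of it from the apolipoprotein APOA1 (4.90 to 223 TPM).

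CYP17A1 encodes the cytochrome P450 that hydroxylates pregnenolone and, with cytochrome b5, forms the androstene skeleton of the pheromone (gene ENSSSCG00000010591, RefSeq Sscrofa11.1 chromosome 14, 113805616 to 113820445). Its rounded counts were 0, 13, 5 and 2 in controls 1 to 4 and 1, 6, 0 and 7 in androstenone libraries 1 to 4. Control 1 held too few estimated counts to show such a level, since 3 counts in it stand for 0.718 CPM and the highest library held 0.142 TMM-scaled CPM. The groups held 20 and 14 counts in all, and the ratio of androstenone to control per count sequenced was 0.512 (95% counting interval 0.239 to 1.07). The edgeR quasi-likelihood test gave a log2 fold change of -0.95 (SE 1.01) with an unadjusted p of 0.375 and an adjusted p of 0.707, and at these counts the fitted value depends on the prior count. No difference in CYP17A1 was detected, and counts this low limit which differences could be seen. Without control 2, which held most of the control counts, the log2 fold change was -0.12.

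CYB5A encodes cytochrome b5, a small heme protein that passes electrons to cytochromes P450 and fatty acid desaturases and promotes the androstene-forming reaction of CYP17A1 (gene ENSSSCG00000004875, RefSeq Sscrofa11.1 chromosome 1, 149737584 to 149773222). Its TMM-scaled CPM was 196, 118, 211 and 162 in controls 1 to 4, and 211, 222, 245 and 167 in androstenone libraries 1 to 4. Control 2 was the lowest and androstenone 3 the highest, and controls 1 and 3 lay within the androstenone range. For CYB5A the log2 fold change was 0.30 (SE 0.23), with an adjusted p of 0.609 by edgeR's quasi-likelihood test with Benjamini-Hochberg adjustment (unadjusted p 0.22). Without control 2 it was 0.15. CYB5A and CYP17A1 thus stood at opposite ends of the level order, and because CYP17A1 was at 0 in control 1 and androstenone 3 their ratio was not tested.

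SRD5A1 is a steroid reductase that saturates the A ring of androstene and androgen precursors, the step that gives androstenone and dihydrotestosterone their ring form (gene ENSSSCG00000017103, RefSeq Sscrofa11.1 chromosome 16, 75309830 to 75335438). Its TMM-scaled CPM was 22.0, 25.3, 20.4 and 18.6 in controls 1 to 4, and 25.4, 28.0, 28.1 and 21.7 in androstenone libraries 1 to 4. Group means were 21.6 ± 2.85 CPM and 25.8 ± 3.01 CPM (SD, n = 4 each). Controls 1 and 2 lay above androstenone 4, the lowest of its group. For SRD5A1 the log2 fold change was 0.26 (SE 0.17), with an adjusted p of 0.562 by edgeR's quasi-likelihood test with Benjamini-Hochberg adjustment (unadjusted p 0.162). Without controls 1 and 4 it was 0.13.

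HSD17B4 encodes a peroxisomal enzyme of several activities that takes part in the beta-oxidation of very long and branched fatty acids and of bile acid precursors, and oxidises estradiol (gene ENSSSCG00000028431, RefSeq Sscrofa11.1 chromosome 2, 123313445 to 123401386). Its TMM-scaled CPM was 98.8, 82.8, 102 and 126 in controls 1 to 4, and 77.9, 74.3, 91.1 and 74.5 in androstenone libraries 1 to 4. Only control 2 lay within the androstenone range, below androstenone 3. The means were 102 ± 17.9 and 79.4 ± 7.92 CPM (SD, n = 4 each), and the fold fitted by edgeR was 0.776. The log2 fold change was -0.37 (SE 0.17), with an unadjusted p of 0.0602 and an adjusted p of 0.456 by edgeR's quasi-likelihood test with Benjamini-Hochberg adjustment.

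On the TPM scale the HSD17B4 groups did not overlap, which held for 5.39% of all genes tested. The values were 51.8, 43.8, 52.4 and 51.3 TPM in controls 1 to 4 and 33.9, 34.0, 41.4 and 35.3 TPM in androstenone libraries 1 to 4. By limma on log2(TPM + 1), HSD17B4 differed by -0.45 with an unadjusted p of 0.00428, a threshold of 0.05 that 8.17% of all genes passed, and its lowest adjusted p over all alternatives was 0.245. The deposited estimated counts of a gene were its TPM times 1 constant per gene and 1 per library, to within 0.3%, in the 17850 genes above 0 in every library. The scales therefore differed only by a factor per library, and the ratio of TMM-scaled CPM to TPM relative to control 1 was 0.993 to 1.29 for controls 2 to 4 and 1.11 to 1.21 after the spray. The size of the HSD17B4 difference was set in part by that factor. Without control 4, the library with the highest bone and cartilage markers, the log2 fold change was -0.26 with an unadjusted edgeR p of 0.14, and the part of those markers in the result was not tested. HSD17B4 also passed an unadjusted p of 0.05 with RLE scaling (0.0481), with the filterByExpr filter (0.0342), with DESeq2 (0.0303) and without control 2 (0.0279). With DESeq2, 3037 of 21318 genes passed that p. The unadjusted edgeR p was 0.152 with library totals, 0.143 by the likelihood ratio test and 0.129 with the replicate number as a block. With any other single library left out it was 0.0519 to 0.14. It was 0.207 without controls 1 and 4, and 0.222 without control 3 and androstenone 1 and 2.

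HSD17B11 encodes a hydroxysteroid dehydrogenase of lipid droplets that oxidises androgens at carbon C17 (gene ENSSSCG00000009225). Its TMM-scaled CPM was 61.8, 45.5, 89.0 and 62.9 in controls 1 to 4, and 59.0, 63.0, 43.9 and 43.3 in androstenone libraries 1 to 4. Control 3 was the highest library, and the other 3 controls lay within the androstenone range. The log2 fold change was -0.31 (SE 0.24), with an adjusted p of 0.611 by edgeR's quasi-likelihood test with Benjamini-Hochberg adjustment (unadjusted p 0.222), and it was -0.12 without control 3.

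CYP11A1 and HSD17B11 shared their highest library. HSD17B11 stood at 43.8 TPM in control 3, and the remaining 7 libraries lay between 19.1 and 31.1 TPM. The 12 ciliated cell markers, none of which passed an unadjusted p of 0.05 between groups, summed to 1990 TPM in control 3, 1470 and 1680 TPM in androstenone 1 and 2, 881 TPM in control 1, and 332 to 485 TPM in the other 4 libraries. Within each group CYP11A1 was higher in the libraries with the higher sums, namely controls 1 and 3 and androstenone 1 and 2, and the part of these cells in the levels was not tested. With control 3, androstenone 1 and androstenone 2 left out, the log2 fold change was -0.70 for CYP11A1 and -0.38 for HSD17B11, and neither passed the unadjusted p.

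**Figure D3:**
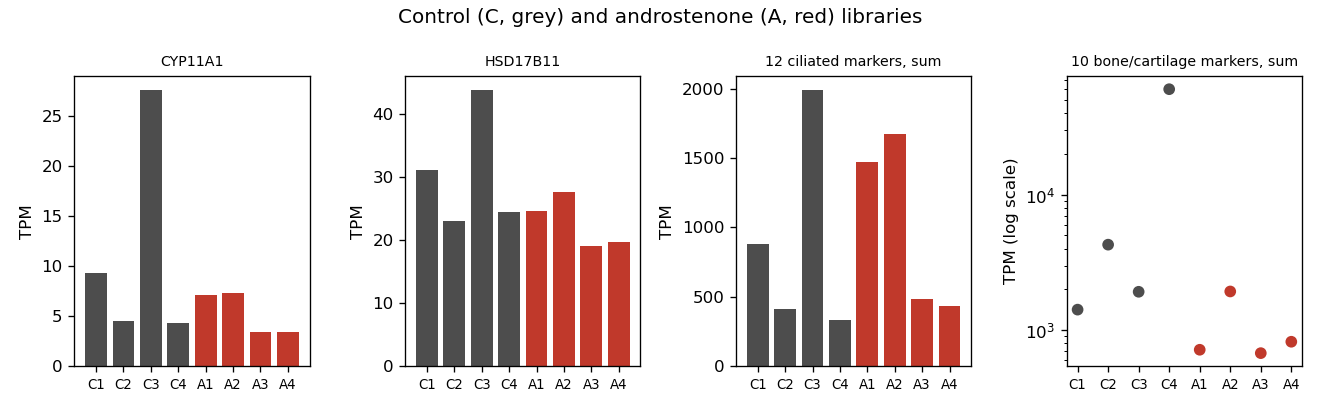
TPM of CYP11A1, of HSD17B11, and of the summed ciliated cell markers (bars from 0) and bone and cartilage markers (points, log scale) in controls 1 to 4 (C, grey) and androstenone libraries 1 to 4 (A, red). Control 3 is the highest library in the first 3 panels, at 27.6, 43.8 and 1990 TPM, and control 4 is the highest in the last, at 60200 TPM.

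The balance between the 2 dehydrogenases was compared within libraries as the ratio of HSD17B4 to HSD17B11 in TPM, which does not depend on the library total. The ratio was 1.67, 1.90, 1.20 and 2.10 in controls 1 to 4, and 1.38, 1.23, 2.17 and 1.80 in androstenone libraries 1 to 4. The groups covered the same range, with means of 1.71 ± 0.388 and 1.64 ± 0.422 (SD, n = 4 each). A two-sided exact permutation test over the 70 assignments of libraries gave p = 0.8286, where the smallest p such a test allows is 0.0286. It was the only ratio of the 4 planned that could be tested.

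SULT2A1 encodes the sulfotransferase that conjugates hydroxysteroids, the androstene alcohols formed from androstenone among them, to water-soluble sulfates (gene ENSSSCG00000033207, RefSeq Sscrofa11.1 chromosome 6, 53525496 to 53536723). Its TMM-scaled CPM was 1.23, 1.11, 0.522 and 0.406 in controls 1 to 4, and 1.08, 1.17, 1.43 and 2.31 in androstenone libraries 1 to 4. Controls 3 and 4 were the lowest libraries, androstenone 4 was the highest, and controls 1 and 2 lay within the androstenone range. The value of control 1 rested on 6 counts, with a 95% Poisson interval of 0.452 to 2.68 CPM, while the other libraries held 27 to 232. The means were 0.818 ± 0.415 and 1.50 ± 0.561 CPM (SD, n = 4 each), and the fold fitted by edgeR was 1.94. The log2 fold change was 0.96 (SE 0.46), with an unadjusted p of 0.0683 and an adjusted p of 0.464 by edgeR's quasi-likelihood test with Benjamini-Hochberg adjustment. In the edgeR test it was 1.13 without control 1 (unadjusted p 0.0484) and 1.26 without control 2 (unadjusted p 0.0411). Both values are past both limits of the unadjusted rule, which 1317 of 21307 and 1079 of 21134 genes passed in those fits. Without androstenone 4 the log2 fold change was 0.67 (unadjusted edgeR p 0.194).

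**Figure D4:**
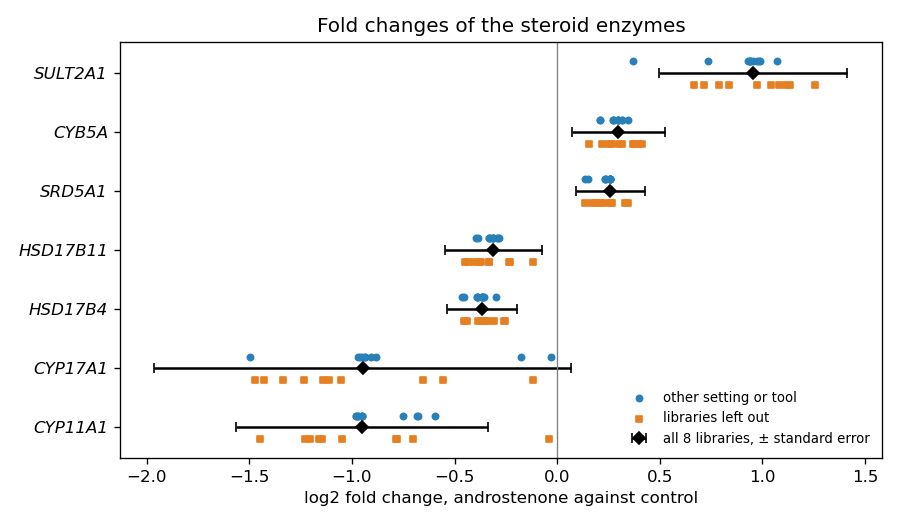
Log2 fold change of the 7 enzymes, androstenone against control, with the value from all 8 libraries (black diamonds, bars ± 1 SE), values from other settings or tools (blue circles) and values with libraries left out (orange squares). Each enzyme keeps its side of 0 throughout, and CYP11A1 runs from -1.45 to -0.04.

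The other genes of steroid synthesis and clearance were followed through a list of 80, of which 55 had a row and were tested. At an unadjusted edgeR p of 0.05, 4 were higher and 2 lower after the spray, that is 6 of 55 beside 11.3% of all genes (5.09% higher and 6.24% lower). After Benjamini-Hochberg adjustment by edgeR's quasi-likelihood test 0 of 55 passed, with a lowest adjusted p of 0.399. The median log2 fold change of the list was 0.03. The count fell to 2 of 55 when libraries were scaled by their totals alone and to 3 of 55 without controls 1 and 4.

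Partners of CYP11A1 in cholesterol delivery and side-chain cleavage included 0 of 7 genes past that p. TSPO, a mitochondrial cholesterol-binding protein, was the third most abundant gene of the list at 66.3 to 224 TPM, with a log2 fold change of 0.18 (SE 0.41). Among 6 electron donors and other oxidases, 1 was higher. It was CYB5B, the cytochrome b5 of the outer mitochondrial membrane, with TMM-scaled CPM of 51.8, 47.4, 47.4 and 53.0 in controls and 66.2, 62.1, 66.9 and 73.7 in androstenone libraries. On this scale and in TPM all 4 androstenone libraries lay above all controls, and the groups overlapped when scaled by library totals. The log2 fold change was 0.43 (SE 0.13), with an unadjusted p of 0.0094 and an adjusted p of 0.399 by edgeR, and the unadjusted p was 0.0556 with library totals and 0.0536 by the likelihood ratio test. POR, the reductase that feeds electrons to microsomal cytochromes P450, stood at 85.1 to 301 TPM, with a log2 fold change of 0.58 (SE 0.46).

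Of 17 other steroid reductases and hydroxysteroid dehydrogenases, 2 were higher and 0 lower at the unadjusted p. The listed AKR1C reductases and AKR1CL1 had no row and were not analysed. DHRS11, a cytosolic ketosteroid reductase, had TMM-scaled CPM of 36.6, 30.9, 25.7 and 25.8 in controls and 42.1, 41.6, 43.8 and 39.4 in androstenone libraries, without overlap, while in TPM and with library totals the groups overlapped. Its log2 fold change was 0.49 (SE 0.16), with an unadjusted edgeR p of 0.0144, which became 0.103 with library totals and 0.0776 and 0.0744 by limma on log2(TPM + 0.1) and log2(TPM + 1). HSD17B7, which acts on estrone and in cholesterol synthesis, had 6.78, 7.56, 8.90 and 9.97 CPM in controls and 12.7, 14.3, 10.7 and 12.8 CPM in androstenone libraries, again without overlap. Its log2 fold change was 0.60 (SE 0.20), with an unadjusted edgeR p of 0.0173 (0.0534 by the likelihood ratio test), and the adjusted p of both DHRS11 and HSD17B7 was 0.416. The most abundant genes of the group were DHRS9, a retinol and steroid dehydrogenase at 23.1 to 430 TPM, and HSD17B2, which inactivates estradiol and testosterone, at 43.2 to 228 TPM. Their log2 fold changes were -0.03 (SE 0.87) and 0.76 (SE 0.46), and both overlapped between the groups.

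Of 14 genes of sulfation and desulfation, 0 were higher and 1 lower. It was SULT1B1, a sulfotransferase of small phenols and thyroid hormones, with 2.05, 1.32, 1.87 and 0.782 TMM-scaled CPM in controls and 0.723, 0.974, 0.600 and 0.657 CPM in androstenone libraries. Control 4 lay within the androstenone range. SULT1B1 differed by a log2 fold change of -0.99 (SE 0.37), with an unadjusted p of 0.027 (0.0622 with library totals) and an adjusted p of 0.416 by edgeR. The unadjusted edgeR p was 0.0585 to 0.0792 without control 1, control 3 or androstenone 1, 3 or 4. Without control 2, control 4 or androstenone 2 it was 0.00587 to 0.0395. SULT1B1 and SULT2A1 thus had fitted values of opposite sign, and the difference between them was not tested. Of 10 genes of glucuronidation listed, only UGDH and UGP2 had a row, and both were above the unadjusted p of 0.05 (0.492 and 0.669 by edgeR). None of the UGT transferases listed, which attach the glucuronide, had a row. Conjugation to glucuronide was therefore not examined.

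Of 9 cytochromes P450 that clear steroids or skatole, 1 was higher and 1 lower. CYP2A19, which clears skatole in pig liver, was the most abundant gene of the whole list at 395 to 1911 TPM, with a log2 fold change of 0.78 (SE 0.54) and overlapping groups. CYP1B1, which hydroxylates estradiol, had 24.4, 83.9, 14.4 and 175 TMM-scaled CPM in controls and 23.2, 12.7, 30.2 and 23.8 CPM in androstenone libraries. Controls 4 and 2 were far above the rest, and controls 1 and 3 lay within the androstenone range. Its log2 fold change was -1.73 (SE 0.72), with an unadjusted p of 0.0415 and an adjusted p of 0.433 by edgeR. CYP1B1 was the 1 gene of the 55 past both limits of the unadjusted rule, which 6.42% of all genes passed. Without control 4 its log2 fold change was -0.87 (unadjusted edgeR p 0.177). The unadjusted edgeR p was 0.0755 without control 2, and 0.0552 to 0.0906 with 1 androstenone library left out. Without control 1 it was 0.0233, and without control 3 it was 0.00836. The unadjusted p was 0.115 by limma voom and 0.112 and 0.116 by limma on log2(TPM + 0.1) and log2(TPM + 1). Controls 4 and 2 were also the libraries with the highest bone and cartilage markers, at 60200 and 4278 TPM. Of these 10 markers, 9 were lower after the spray at an unadjusted edgeR p of 0.05, beside 6.24% of all genes. Their sums overlapped between the groups, with androstenone 2 at 1930 TPM and controls 1 and 3 at 1417 and 1920 TPM. The part of these markers in the CYP1B1 result was not tested. CYP2E1, the cytochrome that oxidises ethanol and skatole, was named after its values were seen because it completed the 4 higher genes, with a log2 fold change of 0.35 (SE 0.15), an unadjusted edgeR p of 0.0474 and no overlap between the groups. That p became 0.0617 with RLE scaling, 0.0853 with library totals, 0.173 by the likelihood ratio test, 0.134 and 0.141 by limma on log2(TPM + 0.1) and log2(TPM + 1), and 0.027 to 0.115 with 1 library left out, above 0.05 in 7 of 8 of those fits.

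**Figure D5:**
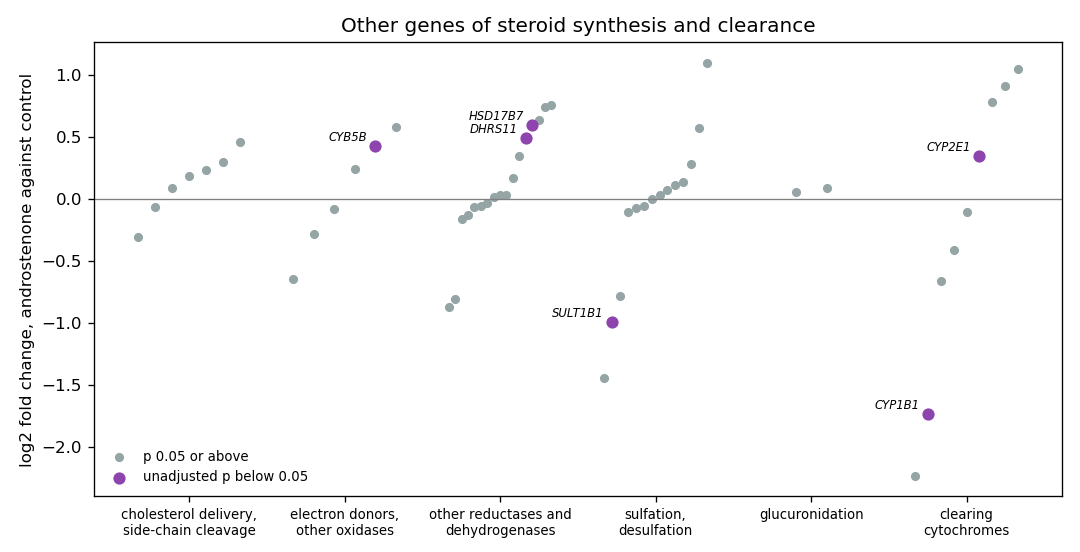
Log2 fold change, androstenone against control (vertical axis), of the 55 other genes of steroid synthesis and clearance in 6 functional groups, ordered by value within each group. The 6 genes at an unadjusted p below 0.05 are named and drawn in purple, with CYP1B1 lowest of them at -1.73 and HSD17B7 highest at 0.60.

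Genes whose levels ran most like each enzyme were sought over the 8 libraries by Pearson correlation of log2 CPM among 14668 named genes. The likeness over 8 libraries is a description, since the libraries share tissue composition and depth. The closest were PIM1 (r = 0.983) and PLA2G2D (r = 0.977) for SULT2A1, and GTPBP10 (r = 0.994) and HACD2 (r = 0.985) for CYB5A. For CYP11A1 they were SLC24A4 and ATG10 (r = 0.988 each), and for HSD17B11 they were TRPC1 (r = 0.987) and PPP4R3B (r = 0.972). For HSD17B4 they were EMSY (r = 0.97) and GLS2 (r = 0.962). SRD5A1 had the weakest likeness, with METTL23 (r = 0.916) and LRRC47 (r = 0.913) closest.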

How the data were processed

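RNA-seq of 8 libraries was deposited as estimated counts and as TPM per gene. Per the labels, the authors used fastp 0.23.1 for read cleaning, then kallisto 0.48.0 for quantification against the Ensembl annotation of Sscrofa11.1. The step from transcripts to genes was not stated in these sources. The deposited counts equal TPM times a gene and a library constant. Both files held 1 column per library and no other columns of values.

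Counts were rounded, 21318 genes whose counts summed to 1 or more entered the fit, and androstenone was compared with control by edgeR 4.0.16 in R 4.3.3 (TMM scaling, quasi-likelihood test, no covariate). SE is the absolute log2 fold change divided by the square root of F. Calls used an unadjusted p of 0.05, that p with an absolute log2 fold change of 1, or Benjamini-Hochberg adjustment over all genes. The fit was tested on simulated counts of independent libraries. That setting held no sows sampled on both sides, so it does not check the p-values for this design. Alternatives were RLE scaling, library totals, other filters, unrounded counts, the likelihood ratio test, DESeq2 1.42.0, limma 3.58.1 (voom, and log2 TPM with a pseudocount of 0.1 or 1), a replicate block, and each library left out. Leaving out controls 1 and 4, or control 3 with androstenone 1 and 2, was chosen after seeing the data.

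The enzymes and gene lists were chosen with earlier results of these data known. Named genes were all 10 enzymes, the list's 3 smallest p per direction below 0.05 and 5 highest mean TPM, and, for enzymes of at least 1 CPM, the 2 most similar named genes that passed filterByExpr. Gene names matched 15527 of 22516 identifiers. Other fixed marker lists, given as summed TPM in control and androstenone libraries, were immature neurons (5.05 to 18.6 and 5.91 to 13.7), sustentacular cells and Bowman glands (477 to 1180 and 487 to 2120), serous glands (3550 to 14100 and 4220 to 9200), macrophages (258 to 735 and 263 to 703), lymphocytes (116 to 749 and 186 to 718) and red blood cells (33.1 to 213 and 18.7 to 101). Most of the sustentacular sum was CYP2A19 (395 to 1911 TPM), also a gene of the clearance list. Of the 8 sustentacular markers with a row, 1 was higher (GSTM3) and 2 lower (CBR1 and SOX9) at an unadjusted edgeR p of 0.05, beside 5.09% and 6.24% of all genes.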

Additional observations from a re-analysis of the deposited data

Results flagged for a closer look

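Each enzyme's TMM-scaled CPM was examined in both groups for a library set apart from the other 3 by Dixon's criterion at 95%, and 0 of 14 groups passed it.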

How the results depend on the processing

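No enzyme changed direction under any alternative that gave it a value (CYP17A1 was dropped by edgeR's filterByExpr). The enzymes past an unadjusted p of 0.05 numbered 0 in the reported fit, 2 with DESeq2 (HSD17B4 and SULT2A1), 1 with RLE, with filterByExpr, with limma voom, and with limma on log2(TPM + 0.1) and log2(TPM + 1), and 0 to 2 with a library left out. With the fold limit added they numbered 1 with voom (SULT2A1, 1.07, unadjusted p 0.0407), where 978 of all genes passed, and 0 to 1 with a library left out. The other steroid genes past that rule numbered 1 as reported, 2 with RLE, filterByExpr and DESeq2, 3 with the likelihood ratio test, 0 with voom and both TPM fits, 4 without the 3 libraries high in ciliated markers, and 1 to 5 with a library left out (5 without control 3). All genes past it numbered 1368 of 21318 as reported, beside the 1 of 55 other steroid genes. They numbered 1387 with RLE, 1489 with DESeq2, 1978 with the likelihood ratio test and 978 with voom. With filterByExpr they numbered 1085 of 18347, and without the 3 libraries high in ciliated markers 1184 of 20997. They numbered 727 and 321 with limma on log2(TPM + 0.1) and log2(TPM + 1), and 881 without controls 1 and 4. With a library left out they ran from 867 (without androstenone 1) to 2414 (without control 3). The log2 difference of the HSD17B4 to HSD17B11 ratio, -0.07 as reported, ran from -0.23 to 0.06 with a library left out, and was 0.04 without control 4, 0.01 without androstenone 1 and 0.062 without androstenone 2. The cause of these shifts was not tested.

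Replicate numbers did not pair the libraries, since deviations of same-numbered libraries correlated at -0.04, -0.55, -0.65 and 0.21. With the replicate number as a block, 583 genes and 0 other steroid genes passed the rule, 2 other steroid genes passed the unadjusted p, and no call of an enzyme changed. Control 1, with 4178330 counts, limits SULT2A1 and CYP17A1.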

Other observations

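Because HSD17B4 also belongs to peroxisomal beta-oxidation, 20 other genes of that pathway were listed after its values had been seen, and 18 had a row and were tested. Of these, 9 had a lower and 9 a higher fitted value in the androstenone group, with a median log2 fold change of -0.02. At an unadjusted p of 0.05 by edgeR's quasi-likelihood test 1 was lower and 0 were higher, beside 11.3% of all genes tested in either direction, and after Benjamini-Hochberg adjustment 0 passed. The lower gene was ACOX3, a peroxisomal oxidase of branched acyl chains, with 77.2, 62.1, 80.6 and 54.0 TMM-scaled CPM in controls and 51.0, 53.7, 49.7 and 41.4 CPM in androstenone libraries. Its groups did not overlap on this scale, which held for 6.53% of all genes, but overlapped in TPM and with library totals, and its log2 fold change was -0.48 (SE 0.18), with an unadjusted edgeR p of 0.0235 and an adjusted p of 0.416. ACAA1, the peroxisomal thiolase that ends the cycle, also did not overlap in TMM-scaled CPM, with the higher values in androstenone libraries, and overlapped in TPM and with library totals (log2 fold change 0.17, unadjusted edgeR p 0.207).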
